A study of Mus musculus with 6 samples.

Results

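The Hoxc and Hoxd cluster genes of this report are 10 of 49554 annotated mouse genes on chromosomes 1 to 19 and X, namely Hoxc4, Hoxc5, Hoxc6, Hoxc8 and Hoxc9 on chromosome 15 and Hoxd3, Hoxd4, Hoxd8, Hoxd9 and Hoxd10 on chromosome 2. They were given by name, and every called peak that overlapped one of them or the 10 kb on either side was taken, whatever its height. Chromatin accessibility had been read by ATAC-seq, in which a transposase cuts and tags open DNA, in about 20000 hematopoietic stem cells per sort. The 3 Dek_cKO libraries came from mice with Dek fl/fl alleles and Tie2-Cre, and the 3 Dek_fl libraries from Dek fl/fl mice with no transgene named, so the floxed alleles were common to both groups. All mice were of the C57BL/6 strain and 12 weeks old, and the sort took Lin-Sca-1+c-Kit+CD48-CD150+ cells. Tie2-Cre expresses the recombinase under control DNA of the Tek gene, in endothelial cells and in the blood lineages, not in stem cells alone. Nothing in the labels ties the libraries of a group to separate animals, so the tests below measure a spread that may be technical, and the series' design text speaks of duplicates where the labels number 3 libraries per group.

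Hox genes encode homeodomain transcription factors that lie in 4 clusters in mammals, in an order that matches the order in which they are used along the body axis. Polycomb complexes keep them silent outside their domain, and Kmt2a (MLL1) with its partners keeps active ones open. In blood stem cells the Hoxa and Hoxb clusters are the ones best known to be used, Hoxa9 and Hoxb4 among them, whereas Hoxc and Hoxd genes are better known from the limbs, the spinal cord and the axial skeleton.

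A peak list holds calls, not reads, and the lists differed in length and in the way they were made. The lists held 70731, 73160 and 27167 peaks in Dek_cKO replicates 1, 2 and 3, against 52434, 71547 and 23809 in Dek_fl replicates 1, 2 and 3. The threshold behind both replicate 3 lists was not that of the other 4, and Dek_fl replicate 1 had the shortest list of those 4. Read depth is unknown, so an uncalled stretch is not shown to be closed. Of 8 stem cell marker genes, 7 had a peak within 1 kb of an annotated end in all 4 libraries of replicates 1 and 2, beside 62.9% of protein-coding genes. The exception, Ly6a, had one in Dek_fl replicate 2 alone. In all 6 libraries 2 of the 8 had one, beside 48.8% of protein-coding genes. The 3 B cell markers had one in Dek_cKO replicates 1 and 2 and in Dek_fl replicate 2, and in no other library. In all 4 libraries of replicates 1 and 2, 2 of 3 stromal, 2 of 3 neutrophil and monocyte and 1 of 3 T cell markers had one. Of 4 endothelial markers, 3 had such a peak in those 4 libraries, and the defining marker Cdh5 had none in any library. All 3 erythroid markers had one in all 6. At the lower end of Tek (chr4:94739086-94874976) the highest −log10 p-value was 32.9, 20.5 and 8.59 in Dek_cKO replicates 1, 2 and 3, against 260.1, 576 and 56.6 in Dek_fl replicates 1, 2 and 3, and a peak inside Tek was called in the 3 Dek_fl libraries and in no Dek_cKO library. The labels name the Tek-driven transgene in Dek_cKO mice only, so these values ran opposite to the labels. Dek_cKO and Dek_fl below mean the libraries labelled so, and if the labels were exchanged every direction given here would turn, which was not tested.

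The Hoxc window ran over 79825 bp (chr15:102967032-103046856) and the Hoxd window over 83999 bp (chr2:74674273-74758271), in mm10 coordinates, and the lower end of a gene is the one with the smaller coordinate. Peaks of the 6 libraries merged into 12 regions in the Hoxc window and 18 in the Hoxd window, of 84592 in the genome. No region of either window was called in all 6 libraries, a call that 23.3% of the regions of the genome had. No region was called in 3 Dek_cKO and 0 Dek_fl libraries (0.104% in the genome), nor in 0 Dek_cKO and 3 Dek_fl libraries (0.00355%). In a sorted pool, a stretch open in few cells and one less open in all cells cannot be told apart.

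Among the 4 libraries of replicates 1 and 2, 10 of the 30 regions (33.3%) were called in all of them, against 56.1% of the regions of the genome. These were 4 of 12 in the Hoxc window and 6 of 18 in the Hoxd window. A replicate 3 library called 2 of the 30 regions (6.67%), against 34.4% in the genome, and in both cases it was Dek_cKO replicate 3 in the Hoxd window. Single libraries accounted for 11 regions, of which 4 were called in Dek_cKO replicate 1, 4 in Dek_cKO replicate 2, 1 in Dek_fl replicate 1 and 2 in Dek_fl replicate 2. The peaks themselves were 287 to 1838 bp wide with a median of 665 bp.

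**Figure D1:**
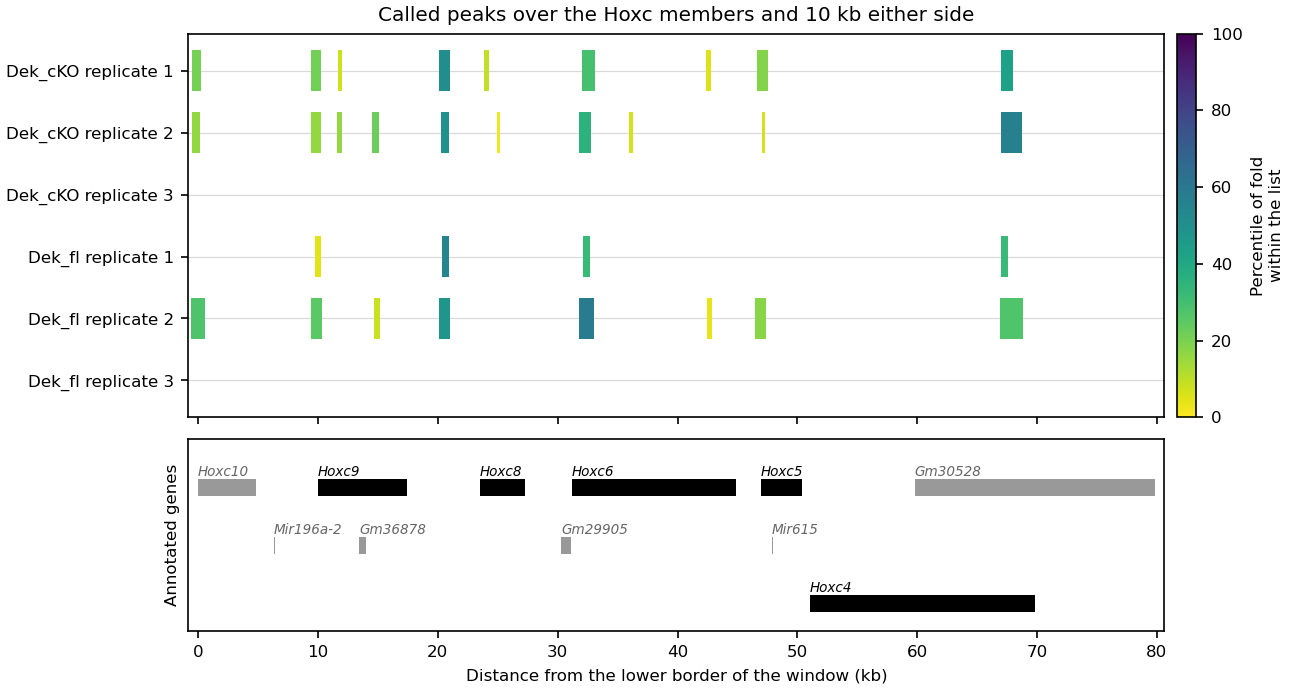
Peaks called over the Hoxc members, in kb from the lower border of the window, with 1 row per library, Dek_cKO above Dek_fl, and the colour giving each peak's percentile of fold within its own list. Members are black and other annotated genes grey, and both replicate 3 rows are empty while replicates 1 and 2 hold 9 and 10 peaks in Dek_cKO and 4 and 8 in Dek_fl.

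**Figure D2:**
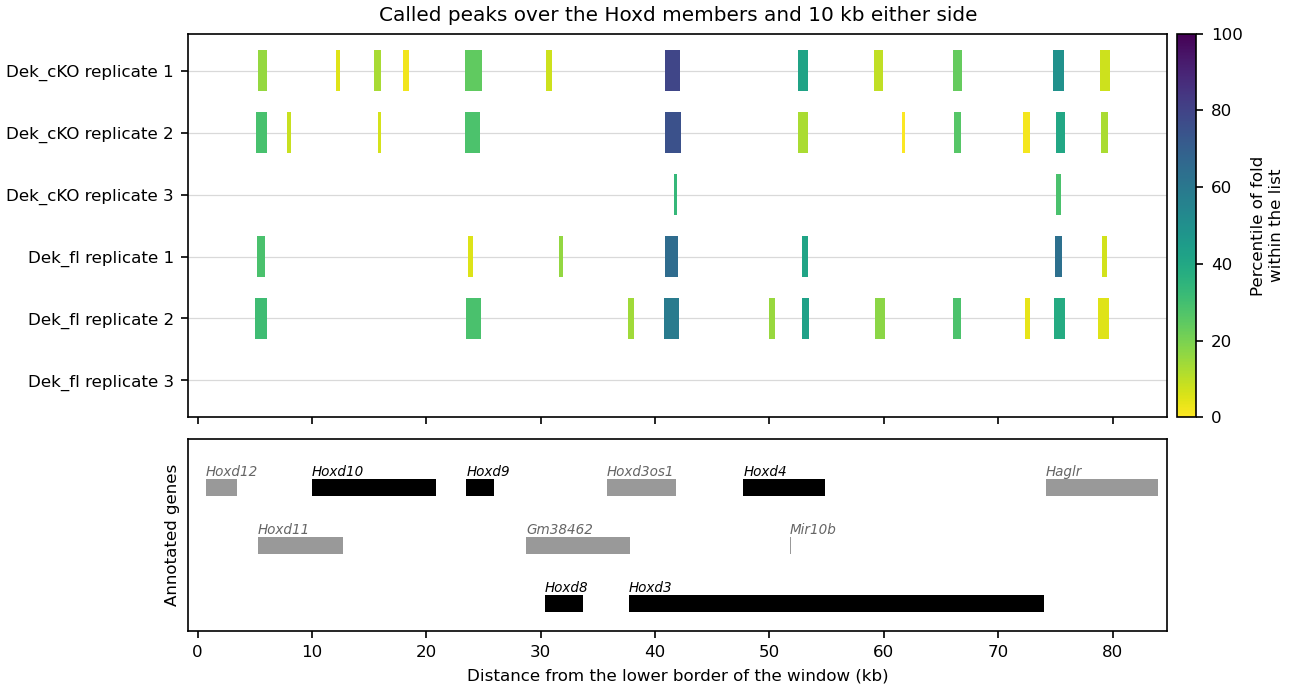
Peaks called over the Hoxd members, drawn in the same way. The darkest peaks, at the upper end of Hoxd3os1 inside the span of Hoxd3, reach percentile 79.1 in Dek_cKO replicate 1 and 64.9 in Dek_fl replicate 1, and Dek_cKO replicate 3 has 2 peaks where Dek_fl replicate 3 has none.

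The peaks with the highest fold in either window lay at the upper end of Hoxd3os1, a long noncoding RNA transcribed against Hoxd3, in a region of 1407 bp inside the annotated span of Hoxd3 (chr2:74715092-74716498). Hoxd3 encodes a homeodomain factor needed for the first cervical vertebrae. The fold of the peak over the local background, a value the authors' peak caller sets within each list, was 7.33, 7.46 and 6.99 in Dek_cKO replicates 1, 2 and 3, against 5.16 and 5.07 in Dek_fl replicates 1 and 2, and the region was not called in Dek_fl replicate 3. All 3 Dek_cKO values lay above both Dek_fl values, but the scale of a fold differs between lists. The median fold of the whole list was 5.05, 5.32 and 8.31 in Dek_cKO replicates 1, 2 and 3, against 4.40 and 4.56 in Dek_fl replicates 1 and 2. The share of the genome's regions with that order of folds was not counted. As a percentile of the library's own list the same peaks stood at 79.1, 75.4 and 33.4 in Dek_cKO and at 64.9 and 58.6 in Dek_fl, so Dek_cKO replicate 3 fell below both Dek_fl libraries on that scale. The −log10 p-values were 54.7, 48.0 and 12.1 in Dek_cKO and 19.4 and 34.8 in Dek_fl, and the −log10 q-values 51.9, 45.2 and 9.51 in Dek_cKO and 16.8 and 32.4 in Dek_fl. The 5 summits lay within 30 bp of each other, between 74715958 and 74715988.

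The 250 bases before the start of Hoxd3os1 (chr2:74716131-74716380, minus strand) lay inside that region, and peaks covered all 250 bases in Dek_cKO replicates 1 and 2 and 101 in Dek_cKO replicate 3, against 107 and 250 in Dek_fl replicates 1 and 2. The sequence is shown because the peaks with the highest fold of both windows reached into it, while their summits lay outside it, inside Hoxd3os1. It comes from the RefSeq promoter table of build GRCm38.p6, is written 5′ to 3′ and is in lower case throughout, since none of the 9 motifs searched for was found in it.

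Hoxd3os1: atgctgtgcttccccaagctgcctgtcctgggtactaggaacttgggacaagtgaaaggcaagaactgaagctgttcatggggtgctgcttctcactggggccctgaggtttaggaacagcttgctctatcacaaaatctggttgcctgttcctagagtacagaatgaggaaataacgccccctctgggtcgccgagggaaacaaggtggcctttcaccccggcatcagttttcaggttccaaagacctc

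Each motif was read on both strands. The PBX-HOX motif, bound by a HOX factor with its cofactor, was TGATNNAT. The blood factor families were represented by TGTGGT for the RUNX factors, by CCGGAAG for the ETS factors and by AGATAA for the GATA factors of blood. CACGTG stood for the E-box, which MYC and its relatives bind. General promoter motifs were GGGCGG for the SP and KLF factors, CCAAT for the factor NFY, TATAAA for the box at which the basal machinery assembles, and the NRF1 motif. They were looked up in the promoters of all 32851 entries of the table, and no 2 matches in the members overlapped. The table held 6 of the 10 members, Hoxc4 and the 5 Hoxd genes. A match is a description of these letters only.

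The other region called in Dek_cKO replicate 3 lay just beyond the upper end of Hoxd3, 615 bp inside Haglr, a long noncoding RNA between Hoxd3 and Hoxd1 (chr2:74749037-74750141). Its fold was 5.02, 4.67 and 6.63 in Dek_cKO replicates 1, 2 and 3, against 5.10 and 3.9997 in Dek_fl replicates 1 and 2, with no call in Dek_fl replicate 3. The groups overlapped, and as list percentiles the peaks stood at 49.7, 40.5 and 28.5 in Dek_cKO and at 63.4 and 38.9 in Dek_fl. The Hoxd3os1 and Haglr regions were the only ones of the 30 called in 5 libraries. Neither overlapped the annotated start of Hoxd3, which had a peak on it in Dek_fl replicate 2 alone, with a fold of 2.82.

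Hoxd9, a factor of the lumbar spine and the limbs, had a region of 1515 bp over its annotated start (chr2:74697636-74699150). Its fold was 3.62 and 3.96 in Dek_cKO replicates 1 and 2, against 2.64 and 3.53 in Dek_fl replicates 1 and 2, and replicate 3 had no call in either group. Both Dek_cKO values were above both Dek_fl values, as were the median folds of the whole lists. The share of the genome's regions with that order of folds was not counted. The list percentiles overlapped, at 24.3 and 28.3 in Dek_cKO and 5.42 and 28.8 in Dek_fl. The peak covered the start itself in Dek_cKO replicates 1 and 2 and in Dek_fl replicate 2, and in Dek_fl replicate 1 it began 186 bp inside the gene.

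Hoxd10, which acts in lumbar motor neurons and the hindlimb, had no peak within 1 kb of either gene end in any library, although its annotated span starts before the start site of the promoter table (chr2, 74691891). The nearest peaks to that start site were 379 and 1562 bp away in Dek_cKO replicates 1 and 2, against 6058 and 5808 bp in Dek_fl replicates 1 and 2. One region of the Hoxd window was called in both Dek_cKO libraries of replicates 1 and 2 and in no Dek_fl library, and it lay in the span of Hoxd10 (chr2:74689697-74690329). Its fold was 3.05 and 2.79 in Dek_cKO replicates 1 and 2, at list percentiles 13.1 and 6.56, so both calls stood low in their lists. Those lists are longer than that of Dek_fl replicate 1. The list of Dek_fl replicate 2, with 71547 peaks and no call here, is longer than the 70731 of Dek_cKO replicate 1. The part of list length in these calls was not tested.

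The promoters of Hoxd9 (chr2:74697513-74697762, plus strand) and Hoxd10 (chr2:74691641-74691890, plus strand) are shown side by side because both were rich in G and C while they differed in peaks. In that of Hoxd9 peaks covered 127 and 120 bases in Dek_cKO replicates 1 and 2, against 0 and 64 in Dek_fl replicates 1 and 2. That of Hoxd10 had no peak on it in any library. Capitals mark the motif matches, an SP-KLF motif in Hoxd9 and, in this order, an E-box, an NFY and a RUNX motif in Hoxd10.
Hoxd9: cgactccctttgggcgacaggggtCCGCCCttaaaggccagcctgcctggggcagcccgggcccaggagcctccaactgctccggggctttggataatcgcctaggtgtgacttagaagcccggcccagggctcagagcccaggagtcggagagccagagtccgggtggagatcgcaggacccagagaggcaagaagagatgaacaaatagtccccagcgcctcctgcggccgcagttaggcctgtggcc
Hoxd10: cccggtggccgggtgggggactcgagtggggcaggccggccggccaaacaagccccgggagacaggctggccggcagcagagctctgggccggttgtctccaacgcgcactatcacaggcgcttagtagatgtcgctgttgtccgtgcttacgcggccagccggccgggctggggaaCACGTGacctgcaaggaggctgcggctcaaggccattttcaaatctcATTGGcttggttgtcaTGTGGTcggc
The G and C content was 65.2% with 13 CpG pairs in Hoxd9 and 65.6% with 20 CpG pairs in Hoxd10, against medians of 52.4% and 6 over all promoters of the table. The SP-KLF motif was found in 32.7% of those promoters, the NFY motif in 33.8%, the RUNX motif in 14.0% and the E-box in 6.02%.

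Hoxd8, which acts in the kidney and the limbs, had a peak at its lower end in Dek_cKO replicate 1 alone (fold 2.71), and another 1268 bp into the gene in Dek_fl replicate 1 alone (fold 3.07). Hoxd4, a hindbrain and cervical patterning factor whose gene lies wholly within the annotated span of Hoxd3, had no peak within 1 kb of its ends in any library. Its start site was 4821, 4812 and 5747 bp from the nearest peak in Dek_cKO replicates 1, 2 and 3, against 5158 and 2286 bp in Dek_fl replicates 1 and 2. The promoters of Hoxd8, Hoxd3 and Hoxd4 held 44.4%, 49.2% and 40.4% G and C, all below the median of the table, and each held 1 NFY motif. That of Hoxd4 also held the TATAAA motif, which was found in 12.4% of all promoters.

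Within Hoxd4 lies Mir10b, whose mature microRNA is known to be made from the Hoxd cluster, and a region of 952 bp began 653 bp beyond it (chr2:74726790-74727741). The fold was 4.56 and 3.15 in Dek_cKO replicates 1 and 2, against 4.02 and 4.19 in Dek_fl replicates 1 and 2. The Dek_cKO values lay on either side of the Dek_fl ones. In the Hoxc window, Mir615 lies inside Hoxc5, and the region at the lower end of Hoxc5 came within 1 kb of it. The mature sequences, from the RefSeq table, are given with the seed (bases 2 to 8) in capitals, and the seeds differ.
mmu-miR-10b-5p: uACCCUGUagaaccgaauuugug
mmu-miR-615-3p: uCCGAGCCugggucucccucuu
The nearest peak to miR-10b-5p (chr2:74726074-74726096) was 703 and 694 bp away in Dek_cKO replicates 1 and 2, against 1040 and 1015 bp in Dek_fl replicates 1 and 2. For miR-615-3p (chr15:103014969-103014990) it was 383 and 603 bp away in Dek_cKO replicates 1 and 2, against 15204 and 514 bp in Dek_fl replicates 1 and 2.

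The other regions of the Hoxd window called in at least 3 libraries were 1 at the lower end of Hoxd11, 1 in the body of Hoxd3 and 1 at Gm14424. At Hoxd11 (chr2:74679275-74680318) the fold was 3.17 and 4.06 in Dek_cKO replicates 1 and 2, against 3.51 and 3.63 in Dek_fl replicates 1 and 2. In the body of Hoxd3 (chr2:74740353-74741086) it was 3.55 and 3.92 in Dek_cKO replicates 1 and 2, against 3.49 in Dek_fl replicate 2, with no call in Dek_fl replicate 1. At Gm14424 (chr2:74752987-74754042) it was 2.72 and 3.16 in Dek_cKO replicates 1 and 2, against 2.66 and 2.36 in Dek_fl replicates 1 and 2. The groups overlapped at Hoxd11, and at Gm14424 both Dek_cKO values were above both Dek_fl values. The share of the genome's regions with that order of folds was not counted. The median fold of the whole list was 5.05 and 5.32 in Dek_cKO replicates 1 and 2, against 4.40 and 4.56 in Dek_fl replicates 1 and 2. In the rank scores explained below, Gm14424 overlapped, at -2.03 and -1.82 in Dek_cKO replicates 1 and 2, against -1.74 and -2.23 in Dek_fl replicates 1 and 2.

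In the Hoxc window the start site of Hoxc4, a gene whose human protein is known to expand blood progenitors in culture, was under a peak in all 4 libraries of replicates 1 and 2. The region (chr15:103033978-103035815) was the widest of the 30, at 1838 bp, and lay within the annotated span of Hoxc4, 1041 bp from its upper end. The fold was 4.66 and 5.79 in Dek_cKO replicates 1 and 2, against 3.65 and 3.44 in Dek_fl replicates 1 and 2, at list percentiles of 43.2 and 56.8 in Dek_cKO and 32.5 and 27.7 in Dek_fl. Both measures were higher in both Dek_cKO libraries than in either Dek_fl library, whereas the rank scores explained below overlapped. The share of the genome's regions with either order was not counted, and the median folds of the whole lists were ordered likewise. No replicate 3 library had a peak within 128744 bp of the start site. The promoter (chr15:103034145-103034394, plus strand) is shown because peaks covered all 250 of its bases in those 4 libraries. It held 62.0% G and C and 8 CpG pairs, and its SP-KLF motif is in capitals.
Hoxc4: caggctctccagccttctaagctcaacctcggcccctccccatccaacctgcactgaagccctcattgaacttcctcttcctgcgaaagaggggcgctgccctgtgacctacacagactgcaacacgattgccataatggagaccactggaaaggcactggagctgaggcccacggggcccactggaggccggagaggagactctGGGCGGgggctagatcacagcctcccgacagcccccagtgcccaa

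Hoxc6, a factor of the thoracic skeleton and of limb-level motor neurons, had a region 579 bp inside its lower end (chr15:102998805-103000147). The fold was 3.86 and 4.42 in Dek_cKO replicates 1 and 2, against 3.67 and 5.06 in Dek_fl replicates 1 and 2, and the groups overlapped. Hoxc9, known for repressing limb-level Hox genes in thoracic motor neurons, had a region over its lower end (chr15:102976415-102977340) with a fold of 3.44 and 3.37 in Dek_cKO replicates 1 and 2, against 2.57 and 3.38 in Dek_fl replicates 1 and 2. Hoxc9 also held the only Hoxc region called in Dek_cKO replicates 1 and 2 and in no Dek_fl library (chr15:102978610-102979049), with a fold of 2.73 and 3.34 at list percentiles 7.71 and 16.0. Regions called so made up 2 of the 30 (6.67%), against 2.95% of the regions of the genome, and none was called in Dek_fl replicates 1 and 2 and in no Dek_cKO library, against 0.325%.

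Between Hoxc9 and Hoxc8 lay the only region of the 30 outside every annotated gene, 2512 bp before Hoxc8 (chr15:102987162-102988027). The fold was 5.14 and 5.32 in Dek_cKO replicates 1 and 2, against 4.64 and 4.43 in Dek_fl replicates 1 and 2. As list percentiles the values overlapped, at 50.9 and 49.95 in Dek_cKO and 54.6 and 47.7 in Dek_fl, close to the median peak of each list. Its 4 summits fell at 102987630 or 102987631. Hoxc8, a thoracic patterning gene, had a peak at its lower end in Dek_cKO replicate 1 alone (fold 2.82).

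Hoxc5, a factor of the cervical and thoracic skeleton, had a region over its lower end (chr15:103013457-103014586) with a fold of 3.32 and 2.77 in Dek_cKO replicates 1 and 2, against 3.00 in Dek_fl replicate 2. At the lower end of Hoxc10, on the border of the window (chr15:102966465-102967615), the fold was 3.41 and 3.35 in Dek_cKO replicates 1 and 2, against 3.45 in Dek_fl replicate 2. Dek_fl replicate 1 called neither. It left uncalled 9 of the 30 regions that Dek_fl replicate 2 called, 4 in the Hoxc window and 5 in the Hoxd window. The 11 regions called in a single library had folds of 2.14 to 3.07 and list percentiles of 0.764 to 16.0, and the 6 called in 2 libraries had folds of 2.30 to 3.66 and percentiles of 1.89 to 22.3.

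**Figure D3:**
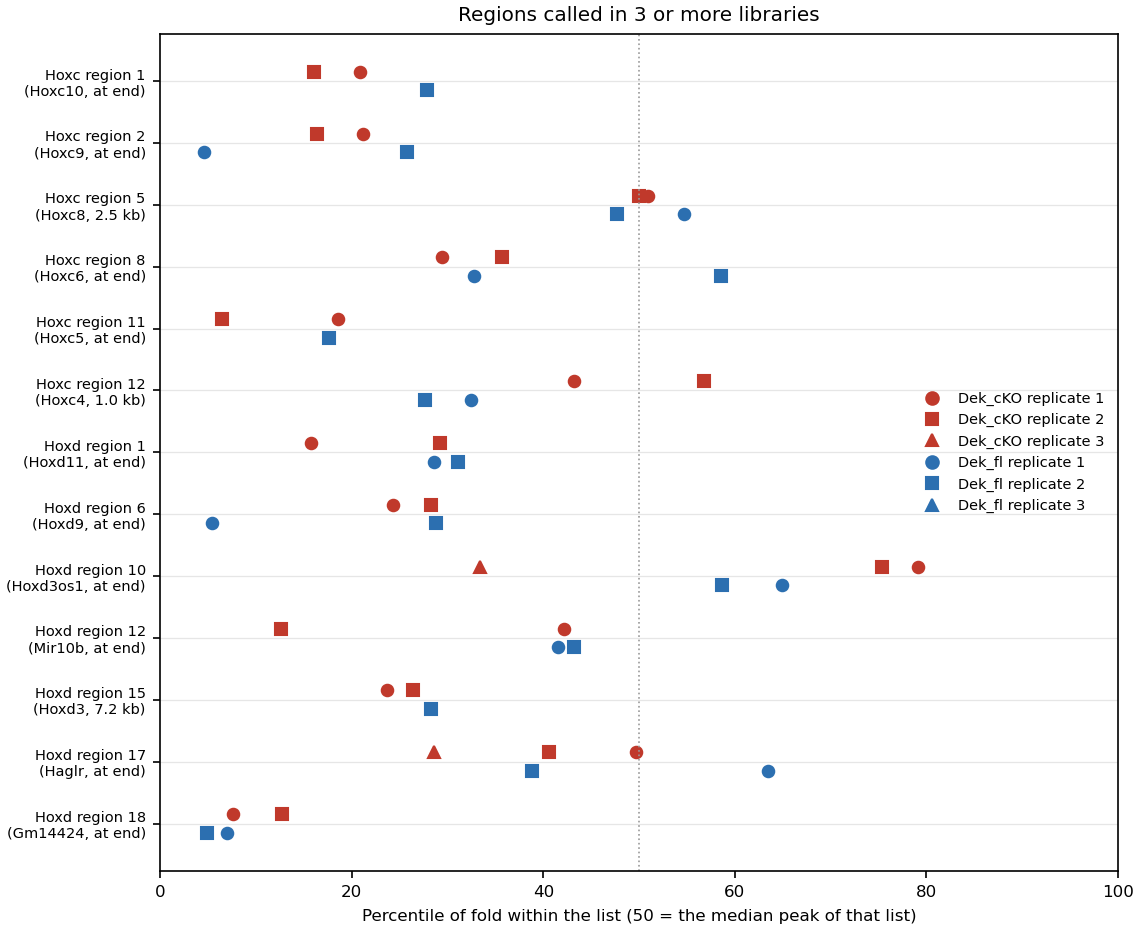
Percentile of fold within each library's own list for the 13 regions called in 3 or more libraries, numbered from the lower border of each window, with Dek_cKO points drawn above Dek_fl points and the dotted line at the median peak. Most points lie left of the line, and Hoxd region 10, at Hoxd3os1, stands furthest right, at 79.1 and 75.4 in Dek_cKO replicates 1 and 2 and 64.9 and 58.6 in Dek_fl replicates 1 and 2.

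Most calls in both windows were low for their list. Of 74 peaks, 9 (12.2%) had a fold above the median of their own list, 4 of 31 in the Hoxc window and 5 of 43 in the Hoxd window. The median percentile of the Hoxc peaks was 20.8 and 16.2 in Dek_cKO replicates 1 and 2, against 32.6 and 26.7 in Dek_fl replicates 1 and 2. That of the Hoxd peaks was 14.4, 12.7 and 31.0 in Dek_cKO replicates 1, 2 and 3, against 28.6 and 28.3 in Dek_fl replicates 1 and 2. The medians were lower in Dek_cKO replicates 1 and 2 than in Dek_fl replicates 1 and 2 in both windows, and the part of list length in this was not tested. When each list was shortened to its 23809 strongest peaks, no Hoxc peak was left in any of the 6 libraries, and the Hoxd window kept 1, 1 and 2 peaks in Dek_cKO replicates 1, 2 and 3, against 2, 1 and 0 in Dek_fl replicates 1, 2 and 3.

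At the ends of the member genes, peaks within 1 kb were found in 7, 4 and 0 members in Dek_cKO replicates 1, 2 and 3, against 4, 5 and 0 members in Dek_fl replicates 1, 2 and 3. Hoxc6, Hoxc9 and Hoxd9 were the 3 members with one in all 4 libraries of replicates 1 and 2, a call that 62.9% of protein-coding genes had. No member had one in a replicate 3 library, against 54.4% of protein-coding genes. Hoxc4, Hoxd4 and Hoxd10, 3 of the 10, had none in any library, beside 30.3% of protein-coding genes. These counts take annotated ends only, and the start site of Hoxc4, inside its span, was under a peak in all 4 libraries of replicates 1 and 2. By cluster, 4, 3 and 0 of the 5 Hoxc members had one in Dek_cKO replicates 1, 2 and 3, against 2, 3 and 0 in Dek_fl replicates 1, 2 and 3, and 3, 1 and 0 of the 5 Hoxd members in Dek_cKO, against 2, 2 and 0 in Dek_fl. The Hoxd counts of Dek_cKO replicates 2 and 3 turned on the 1 kb limit at the upper end of Hoxd3. The nearest peak to that end was 766, 1049 and 1038 bp away in Dek_cKO replicates 1, 2 and 3. It was 969, 882 and 77457 bp away in Dek_fl replicates 1, 2 and 3. The mean number of members per library was higher by 0.667 in Dek_cKO, within a spread that includes the replicate 3 libraries. The difference was -1 without Dek_cKO replicate 1, -0.833 without Dek_fl replicate 3 and 2 with gene ends taken within 2.5 kb.

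Called length was compared next, over each window as a whole. Peaks covered 7.69%, 7.86% and 0% of the Hoxc window in Dek_cKO replicates 1, 2 and 3, against 2.98%, 9.30% and 0% in Dek_fl replicates 1, 2 and 3. The means were 5.18% ± 4.49 in Dek_cKO and 4.09% ± 4.75 in Dek_fl (SD, n = 3 each), and the groups overlapped. In the Hoxd window peaks covered 11.5%, 9.56% and 0.905% in Dek_cKO replicates 1, 2 and 3, against 4.80%, 11.0% and 0% in Dek_fl replicates 1, 2 and 3. The means were 7.33% ± 5.65 in Dek_cKO and 5.27% ± 5.52 in Dek_fl (SD, n = 3 each), and the groups overlapped there too.

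The SD of each group includes replicate 3, whose lists were made with another threshold, so it is not the spread of libraries made alike. The differences of 1.09 percentage points in the Hoxc window and 2.06 in the Hoxd window were smaller than each of these SDs. Within replicates 1 and 2 they were 1.63 and 2.63 points, and within replicate 3 they were 0 and 0.905 points. Leaving out 1 library decided their sign. Without Dek_cKO replicate 1 the differences were -0.16 and -0.04 points, without Dek_fl replicate 3 they were -0.96 and -0.58 points, and without Dek_cKO replicate 2 they were -0.25 and 0.941 points. Without Dek_cKO replicate 3 they were 3.68 and 5.27 points, without Dek_fl replicate 2 they were 3.69 and 4.93 points, and without Dek_fl replicate 1 they were 0.532 and 1.82 points. Each list covered a different length of the genome, 70.3, 64.9 and 15.9 Mb in Dek_cKO replicates 1, 2 and 3, against 44.2, 74.9 and 14.7 Mb in Dek_fl replicates 1, 2 and 3, and Dek_fl replicate 1 had the shortest covered length of replicates 1 and 2. Per Mb of that length the Hoxc window held 87.3 and 96.6 bp in Dek_cKO replicates 1 and 2, against 53.9 and 99.1 bp in Dek_fl, and the Hoxd window 138 and 124 bp in Dek_cKO, against 91.3 and 124 bp in Dek_fl.

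**Figure D4:**
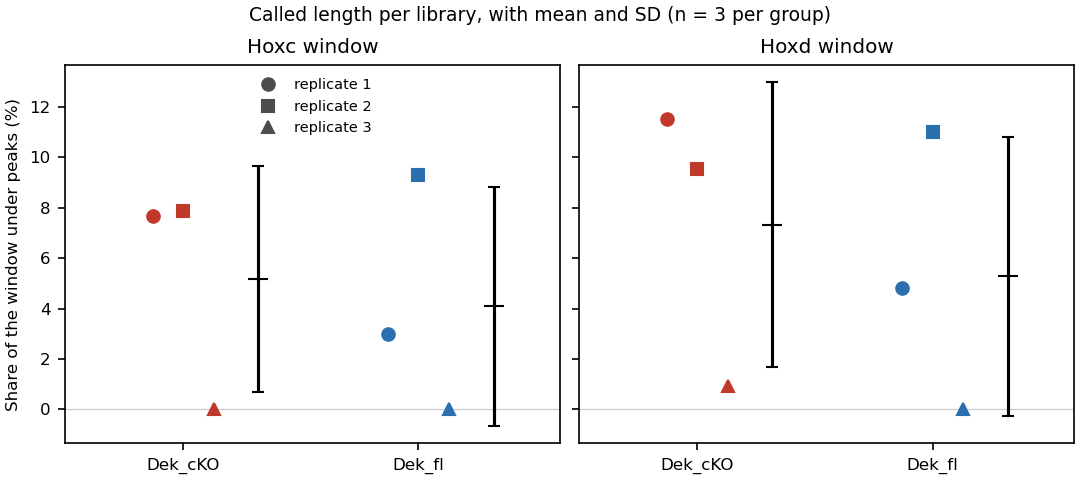
Share of each window under called peaks, in percent, for each library (points, shaped by replicate) with the group mean and SD (bars, n = 3). Dek_cKO averages 5.18% and Dek_fl 4.09% in the Hoxc window, Dek_cKO averages 7.33% and Dek_fl 5.27% in the Hoxd window, and replicate 3 lies at or near 0 in all 4 groups of points.

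The 2 clusters were then set side by side within each library, where list length and threshold are shared. The share of the Hoxc window under peaks minus that of the Hoxd window was -3.83, -1.70 and -0.905 percentage points in Dek_cKO replicates 1, 2 and 3, against -1.82 and -1.71 points in Dek_fl replicates 1 and 2, and both shares were 0 in Dek_fl replicate 3. The Hoxc window was thus the less covered in 5 of 6 libraries, with a mean difference of -1.66 points (SD 1.27, n = 6 libraries), and no library had the reverse order. In number of peaks, the Hoxc window held 9, 10 and 0 in Dek_cKO replicates 1, 2 and 3, against 4, 8 and 0 in Dek_fl replicates 1, 2 and 3. The Hoxd window held 12, 11 and 2 in Dek_cKO, against 7, 11 and 0 in Dek_fl. The highest list percentile was 50.9 and 56.8 in the Hoxc window and 79.1 and 75.4 in the Hoxd window in Dek_cKO replicates 1 and 2, and it was 54.6 and 58.6 in the Hoxc window and 64.9 and 58.6 in the Hoxd window in Dek_fl replicates 1 and 2. No test was made of a score over the members, and 2 windows read in the same libraries are not a sample of clusters.

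The position of a region among all regions was compared between Dek_cKO and Dek_fl by ranking folds within each library, turning ranks into normal scores, in which 0 is the median region, and fitting limma across all regions. The fit over the 19683 regions called in all 6 libraries held no region of either window. After Benjamini-Hochberg adjustment at 0.05, 0 (0%) of its regions were higher and 0 (0%) lower in Dek_cKO. At an unadjusted limma p under 0.05, 68 were higher and 19 lower, or 0.442% of its regions, fewer than evenly spread p-values would give. With a replicate block that share was 4.44%. Without the block, the different making of the replicate 3 lists stays in the residual spread. The 0 calls of the 6-library fit therefore say little about whether regions differ. The fit over the 47499 regions called in all 4 libraries of replicates 1 and 2 held 10 of the 30, and again 0 (0%) regions were higher and 0 (0%) lower, with 1163 and 566 at an unadjusted p under 0.05. None of the 10 was past the unadjusted threshold either. In simulated data of the same size that fit recovered 0% of regions shifted by 2 score units, a shift larger than any difference seen in the 10 regions. The simulation took each region's SD, estimated from these 4 libraries, as its true spread. The recovery in the real fit may therefore differ, and it was not measured.

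At Hoxd3os1 the scores were 0.51 and 0.33 in Dek_cKO replicates 1 and 2, against 0.29 and -0.21 in Dek_fl replicates 1 and 2. As labelled, this was the only one of the 10 regions in which both Dek_cKO scores lay above both Dek_fl scores, an order that 13.7% of the 47499 regions had. The difference was 0.38 ± 0.35 (SE, n = 2 libraries per group, limma adjusted p = 1). At Hoxc4 the scores were -0.68 and -0.31 in Dek_cKO, against -0.62 and -1.20 in Dek_fl, and they overlapped where the list percentiles had not. The difference at Hoxc4 was 0.42 ± 0.36 (SE, limma adjusted p = 1).

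As labelled, both Dek_cKO scores lay below both Dek_fl scores in 3 of the 10 regions, an order that 15.1% of the 47499 regions had. Beside Mir10b they were -0.72 and -1.83 in Dek_cKO, against -0.36 and -0.70 in Dek_fl, a difference of -0.75 ± 0.38 (SE, limma unadjusted p = 0.0605, adjusted p = 1). At Hoxc6 they were -1.12 and -0.97 in Dek_cKO, against -0.61 and -0.21 in Dek_fl, a difference of -0.63 ± 0.35 (SE, limma unadjusted p = 0.0822, adjusted p = 1). At Hoxd11 they were -1.63 and -1.18 in Dek_cKO, against -0.74 and -1.08 in Dek_fl, a difference of -0.49 ± 0.35 (SE, limma adjusted p = 1). The size of the difference beside Mir10b rested on Dek_cKO replicate 2, and without that library it was -0.19.

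The other 5 regions differed by -0.36 to 0.24 with standard errors of 0.35 to 0.38, and each had a limma adjusted p of 1. The scores were higher in Dek_cKO in 5 of the 10 regions and lower in 5, with a median difference of -0.07, beside -0.03 over all 47499 regions. In 9 of the 10 regions at least 3 of the 4 scores were below 0, so apart from Hoxd3os1 the regions of both windows ranked in the lower part of the regions called in all 4 libraries.

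**Figure D5:**
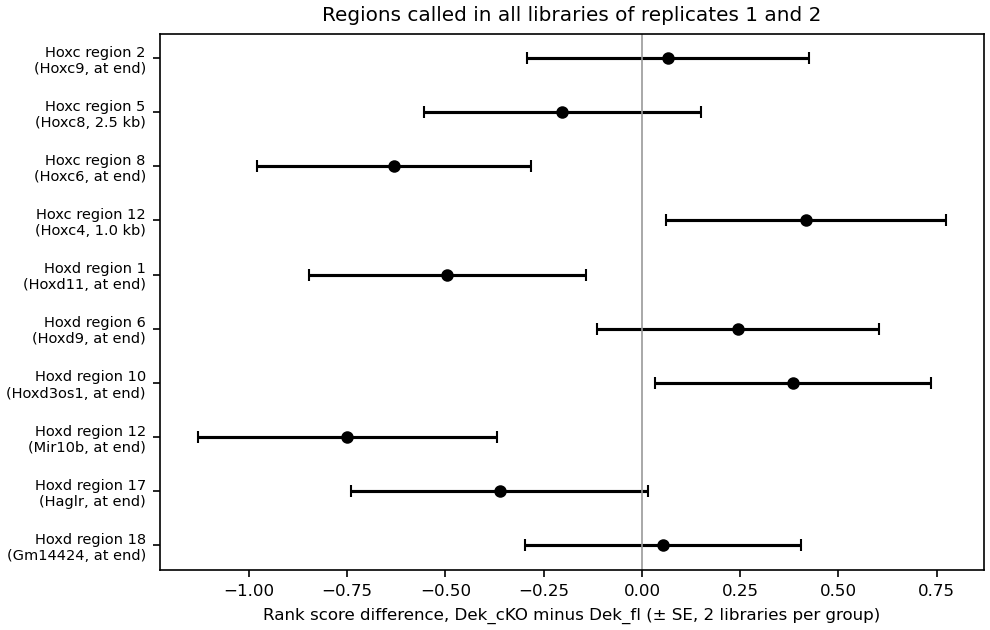
Difference in rank score, Dek_cKO minus Dek_fl, with its standard error for the 10 regions called in all 4 libraries of replicates 1 and 2, numbered as in the plot of percentiles. Hoxd region 12 beside Mir10b lies furthest to the left at -0.75 and Hoxc region 12 at Hoxc4 furthest to the right at 0.42, and no region was called by limma.

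The nearest regions called in all 6 libraries lay outside both windows. On the Hoxd side the nearest was 17744 bp below the window, inside Evx2, a homeobox gene next to Hoxd13 (chr2:74655963-74656529). Its fold was 3.46, 4.04 and 6.03 in Dek_cKO replicates 1, 2 and 3, against 2.65, 3.29 and 5.89 in Dek_fl replicates 1, 2 and 3. The nearest above the window was 67123 bp away at Mtx2, which encodes a protein of the outer mitochondrial membrane. On the Hoxc side the nearest were 244243 bp below the window at Calcoco1, a coactivator and autophagy gene, and 115861 bp above it inside Smug1, a DNA repair glycosylase gene.

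Each Hox cluster was then taken whole with 10 kb on either side. In all 6 libraries 0 of 22 regions of the Hoxc cluster and 0 of 25 of the Hoxd cluster were called. The counts were 4 of 23 regions of the Hoxa cluster (17.4%) and 2 of 29 of the Hoxb cluster (6.90%). Both of these shares were also below the 23.3% of the regions of the genome. In replicates 1 and 2, 4 of 22 regions of the Hoxc cluster and 10 of 25 of the Hoxd cluster were called in all 4 libraries. The counts were 12 of 23 in the Hoxa cluster and 18 of 29 in the Hoxb cluster, beside 56.1% of the regions of the genome. The highest list percentile in the Hoxa cluster was 93.8 and 90.8 in Dek_cKO replicates 1 and 2, against 79.4 and 92.4 in Dek_fl replicates 1 and 2, above that of the whole Hoxc and Hoxd clusters in each of these 4 libraries. In the Hoxb cluster it was 87.2 and 68.6 in Dek_cKO replicates 1 and 2, against 68.2 and 78.7 in Dek_fl replicates 1 and 2, and in Dek_cKO replicate 2 this was below the 75.4 of the whole Hoxd cluster. These are descriptions of 4 clusters in shared libraries, without a test.

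Of the genes known to act on Hox clusters, all 6 of the Kmt2a group (Kmt2a, Men1, Psip1, Wdr5, Ash2l and Rbbp5) and all 10 Polycomb genes listed, among them Ezh2, Eed and Bmi1, had a peak within 1 kb of an end in the 4 libraries of replicates 1 and 2, and 5 of 6 and 7 of 10 had one in all 6, beside 48.8% of protein-coding genes. The 9 cofactor genes of the Meis, Pbx and Pknox families had one in the same 4 libraries, and 5 of 9 in all 6, near the 48.8% of protein-coding genes. In those 4 libraries 62.9% of protein-coding genes had one. Among the other genes of the clusters, 0 of 4 Hoxc genes and 3 of 4 Hoxd genes had one in all 4 libraries of replicates 1 and 2, beside the same 62.9%. None of them had one in all 6. For regions at the ends of these genes, the limma fits called 0 higher and 0 lower in Dek_cKO in every list, and the 4-library fit had 1 region at an unadjusted p under 0.05 among the cofactors and 1 among the Polycomb genes. Median score differences in the 4-library fit were -0.22 for the Kmt2a group, -0.13 for the Polycomb genes and -0.06 for the cofactors, beside -0.03 over all regions. In the 6-library fit they were -0.16 for the Kmt2a group, 0.0159 for the Polycomb genes and 0.00345 for the cofactors, beside -0.0178 over all regions.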

How the data were processed

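ATAC-seq peak lists of 6 libraries were used. The tools Bowtie2, Picard and MACS2 and the build mm10 are named per the submitters' processing notes; versions, settings and any Tn5 shift were not given in the sources used here. The authors called and deposited 1 list per library, which gives a score, a fold over local background, a −log10 p-value and a −log10 q-value. The authors' score equalled, within 1 unit, 10 times the −log10 q-value in replicates 1 and 2 and 10 times the −log10 p-value in replicate 3, so replicate number also marks 2 ways of making the lists, each holding both groups. Read depth is unknown, so no interval is given.

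Overlapping peaks (1 bp) of all lists, chromosomes 1 to 19 and X, were merged (Python 3.11.15, pandas 2.3.3). The RefSeq gene table (GRCm38.p6) gives gene ends without strand, exons or UTRs, so positions are relative to ends; strand and start sites come from the promoter table. Fold ranks were tested with limma 3.58.1 in R 4.3.3, without a block and with Benjamini-Hochberg adjustment. Since the planned fit over all 6 libraries held no member region, values for members come from the fit on replicates 1 and 2. On simulated data the 6-library fit recovered 0% and 40.5% of regions shifted by 1 and 2 score units, and the 4-library fit 0% of both. Each region's SD, estimated from the same few libraries, was taken there as its true spread, so these shares may not be those of the real fits. Deviations from the group means correlated between same-numbered libraries at 0.272, 0.522 and 0.740 over 19683 regions for replicates 1, 2 and 3. Both replicate 3 lists were made in another way, and libraries of different number were not compared. These correlations therefore cannot show that the numbers pair the libraries, and a pairing rests on the shared number in the labels alone.

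All 10 members are named. Regions called in at least 3 libraries, or in at least 2 of one group only, are given with all fold values, others as ranges. Members, lists, motifs and tests were chosen with earlier results of these data known. Alternatives were a −log10 q-value of at least 10, lists of equal length, replicates 1 and 2 alone, a flank of 5 kb, gene ends within 2.5 kb, calls that cover a set share of a region, ranks of −log10 p, a replicate block and leaving out each library.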

Additional observations from a re-analysis of the deposited data

How the results depend on the processing

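Regions of the windows called in every Dek_cKO library and no Dek_fl library numbered 0 over all 6 libraries and 2 over replicates 1 and 2 only, and leaving out each library in turn gave 0 to 2. The reverse count was 0 in every setting run. Coverage differences and the number of members with a peak near an end moved by less than 1 SD in every setting. Between Dek_cKO and Dek_fl that SD was 4.62 points for the Hoxc window, 5.59 for the Hoxd window and 3.11 members. It includes the replicate 3 lists, made in another way, so staying within it is a loose limit. The differences between Dek_cKO and Dek_fl turned sign when some single libraries were left out. They ran from -0.96 to 3.69 points in the Hoxc window, -0.58 to 5.27 in the Hoxd window and -1 to 2.5 members. With lists of equal length the difference in members was -0.333. Hoxc minus Hoxd coverage stayed negative, at -1.99 to -1.23 points with 1 library left out.

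With the replicate block, limma called 1 region higher and 0 lower in Dek_cKO over all 6 libraries, and 5 higher and 3 lower over replicates 1 and 2, none of them in the windows. Leaving out 1 library gave 0 to 1 higher over replicates 1 and 2, the 1 without Dek_fl replicate 2. Of the 10 member regions, 5 kept the direction of their score difference under all 6 alternatives and 5 turned when 1 library was left out, with ranges of -0.27 to 0.42 at Hoxc9, -0.48 to 0.0708 between Hoxc9 and Hoxc8, -0.10 to 0.60 at Hoxd9, -0.89 to 0.17 at Haglr and -0.18 to 0.33 at Gm14424. A library left alone in its group is assumed there to vary like the others. The cause of these turns was not tested. The blocked, ranked −log10 p and leave-out fits on replicates 1 and 2 were chosen after seeing the data.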
